A study of Homo sapiens with 18 samples.

Results

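The ERK feedback genes are genes that the RAS-RAF-MEK-ERK cascade switches on and whose products mostly act back on it. They were taken by gene symbol as DUSP4, DUSP5, DUSP6, SPRY1, SPRY2, SPRY4, SPRED1, SPRED2, ETV4 and ETV5, 10 of the 58302 genes in the tables, and were measured by RNA sequencing in 3 human lung cancer cell lines with lowered levels of the tyrosine kinase SYK. EBC-1 carries an amplified MET gene, and PC-9 and HCC827 carry a mutated EGFR gene. Each line was compared as cells with a stable shRNA against SYK (shSYK) and cells with a negative control construct (nc), and each of the 6 groups held 3 of the 18 libraries. The shRNA was 1 clone, no agent or time point separated the groups, and the labels do not state that the 3 libraries of a group came from separate cultures, so the p-values measure only the spread between these samples. The study asked how SYK bears on the epithelial state and on the response to c-Met and EGFR inhibitors.

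ERK is activated when a receptor tyrosine kinase such as MET or EGFR signals through GRB2, SOS and RAS to the RAF and MEK kinases. Nuclear ERK raises the transcription of a group of genes within a short time, many of which damp the pathway. The DUSP proteins are phosphatases that remove phosphate from MAP kinases, the Sprouty (SPRY) and SPRED proteins act upstream on the step from the receptor to RAF, and ETV4 and ETV5 are ETS family transcription factors that carry the signal on to further genes. The transcripts of this group are widely used as a readout of ERK activity in cells driven by MET or EGFR.

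Values are FPKM as deposited, fragments scaled by gene length and by a library size that, read from the values, was 0.883 to 1.07 times the reads on genes. SYK fell in each line: EBC-1 went from 14.2 to 7.43 FPKM (52.3% of nc), PC-9 from 6.51 to 2.09 FPKM (32.1%) and HCC827 from 9.08 to 2.99 FPKM (32.9%), with limma adjusted p-values of 0.000271, 0.00733 and 0.000197, where the PC-9 call was lost without shSYK replicate 1 (adjusted p = 0.0648). Between 7920099 and 15729103 reads fell on genes in a library. The 6 epithelial markers EPCAM, CDH1, KRT8, KRT18, KRT19 and CLDN7 summed to between 1210 and 4810 FPKM in every library, and in EBC-1 and HCC827 their sums were lower with shSYK (1210 to 1260 against 1300 to 1530 FPKM, and 2690 to 3100 against 3280 to 3660 FPKM). The highest of them, KRT19, went from 713 to 581 FPKM in EBC-1 and from 1922 to 1424 FPKM in HCC827. EPCAM and KRT8 in EBC-1, and KRT18, EPCAM and KRT8 in HCC827, were not called, while the other markers fell in these lines. The number of markers of blood, endothelial, fibroblast and liver cells that passed 3 reads in any library was 2 of 9 for EBC-1, 5 of 9 for PC-9 and 3 of 9 for HCC827. In PC-9 their summed level was 20.7 to 25.6 FPKM in nc and 13.2 to 15.5 FPKM in shSYK, held by PECAM1, COL1A1 and CDH5, while COL3A1 and ALB were at 0. PECAM1 fell from 13.4 to 4.98 FPKM (limma adjusted p = 0.00492), while COL1A1 and CDH5 were at 98.0% and 98.2% of nc. The part of these markers in the PC-9 results was not tested. Some libraries stood apart from the others of their group by the chi-square of their reads per degree of freedom: EBC-1 nc replicate 2 (10.6 and 12.2 against the other nc libraries, which gave 2.23 between them), EBC-1 shSYK replicate 3 (9.28 and 8.35, against 2.11) and PC-9 nc replicates 1 and 2, which gave 38.7 between them. Without either EBC-1 library 3 members were called in EBC-1 in place of 2, and without either PC-9 library the number called in PC-9 stayed at 1.

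Upstream sequence is shown for DUSP6 and SPRY4, the members whose response to shSYK differed between EBC-1 and each of the EGFR-mutant lines. For SPRY4 the difference against PC-9 was called in only 10 of 25 alternatives. The 250 bases before the RefSeq start are given 5′ to 3′ on the gene's own strand in build GRCh38.p14, at chr12:89352502-89352751 (minus strand) for DUSP6 and at chr5:142324248-142324497 (minus strand) for SPRY4. Both windows lie within the genes as annotated in the deposited values, whose 5′ ends are at 89353271 for DUSP6 and 142326455 for SPRY4. Capitals mark matches to a searched motif.
DUSP6: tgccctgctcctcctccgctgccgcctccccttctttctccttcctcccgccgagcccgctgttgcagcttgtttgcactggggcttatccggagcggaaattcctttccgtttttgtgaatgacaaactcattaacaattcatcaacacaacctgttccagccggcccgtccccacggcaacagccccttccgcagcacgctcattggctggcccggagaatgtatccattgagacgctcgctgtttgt
SPRY4: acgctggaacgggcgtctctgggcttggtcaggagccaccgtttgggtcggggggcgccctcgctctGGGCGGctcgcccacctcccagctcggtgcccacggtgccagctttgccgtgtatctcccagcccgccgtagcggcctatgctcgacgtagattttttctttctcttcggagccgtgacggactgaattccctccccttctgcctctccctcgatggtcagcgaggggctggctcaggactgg

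Capitals in these windows mark 5 motifs searched on both strands, whose matches overlapped at no start of a member: TGAATGAA and TGAATGGA, bound by the repressor CIC, CCGGAAGT, an ETS motif, TGACTCA, an AP-1 motif, and GGGCGG, an SP1 motif. Of 35116 RefSeq windows of the same length, 1.4% held TGAATGAA, 0.83% TGAATGGA, 3.42% CCGGAAGT, 4.2% TGACTCA and 42.64% GGGCGG. RefSeq starts were at hand for 6 of the 10 members, with 10 starts, and DUSP4, DUSP5, ETV4 and ETV5 had none in the table. Only GGGCGG was found, at 4 of the 10 starts: in SPRY4 it lay 183 to 178 bases before the start, it occurred once at the SPRED1 start and at 1 start each of SPRY1 and SPRY2, and none of the 5 motifs was found in the DUSP6 window. A match of letters is not a bound site, and the absence of a match says only that these letters were not in the window.

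All 10 members passed the filter of a mean of 1 FPKM in each line. Their level in the nc cells did not follow 1 order over the lines. DUSP4 and ETV4 differed most, with 38.0 ± 5.51 FPKM in PC-9 against 5.91 ± 0.214 FPKM in HCC827 for DUSP4 (SD, n = 3 each), 6.43 times as much, and with 53.3 ± 14.1 against 14.8 ± 1.68 FPKM for ETV4, 3.6 times as much. ETV5 was also highest in PC-9 (13.1 ± 1.33 FPKM) and lowest in HCC827 (5.77 ± 0.533 FPKM). DUSP5 was highest in EBC-1 (36.2 ± 1.76 FPKM) and lowest in HCC827 (16.7 ± 0.523 FPKM), and SPRED2 was highest in HCC827 (15.9 ± 0.407 FPKM) and lowest in EBC-1 (8.11 ± 0.373 FPKM). The nc means of DUSP6, SPRY1 and SPRED1 lay within 1.19, 1.22 and 1.14 times of each other over the lines, and those of SPRY2 and SPRY4 within 1.58 and 1.57 times. The lines were deposited as 3 separate tables, and how the library sizes were set is not given in the sources used here, so levels across lines are described and not tested.

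Over the 6 groups, DUSP6 ran from PC-9 shSYK (7.04 FPKM) through HCC827 shSYK (8.61), PC-9 nc (9.87), EBC-1 nc (10.9) and HCC827 nc (11.7) to EBC-1 shSYK (15.7 FPKM), and only the highest of these groups stood clear of its neighbour in range. SPRY1 ran from HCC827 shSYK (3.64 FPKM) and PC-9 shSYK (4.12 FPKM), whose ranges overlapped, to the groups above them, EBC-1 shSYK (5.51), HCC827 nc (5.82), EBC-1 nc (7.04) and PC-9 nc (7.12 FPKM), of which each overlapped the next. SPRED1 moved least, from 3.71 FPKM in PC-9 shSYK to 5.78 FPKM in EBC-1 shSYK, with every neighbouring pair of groups overlapping. The plot of levels by library shows these orders and the spread behind them.

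**Figure D1:**
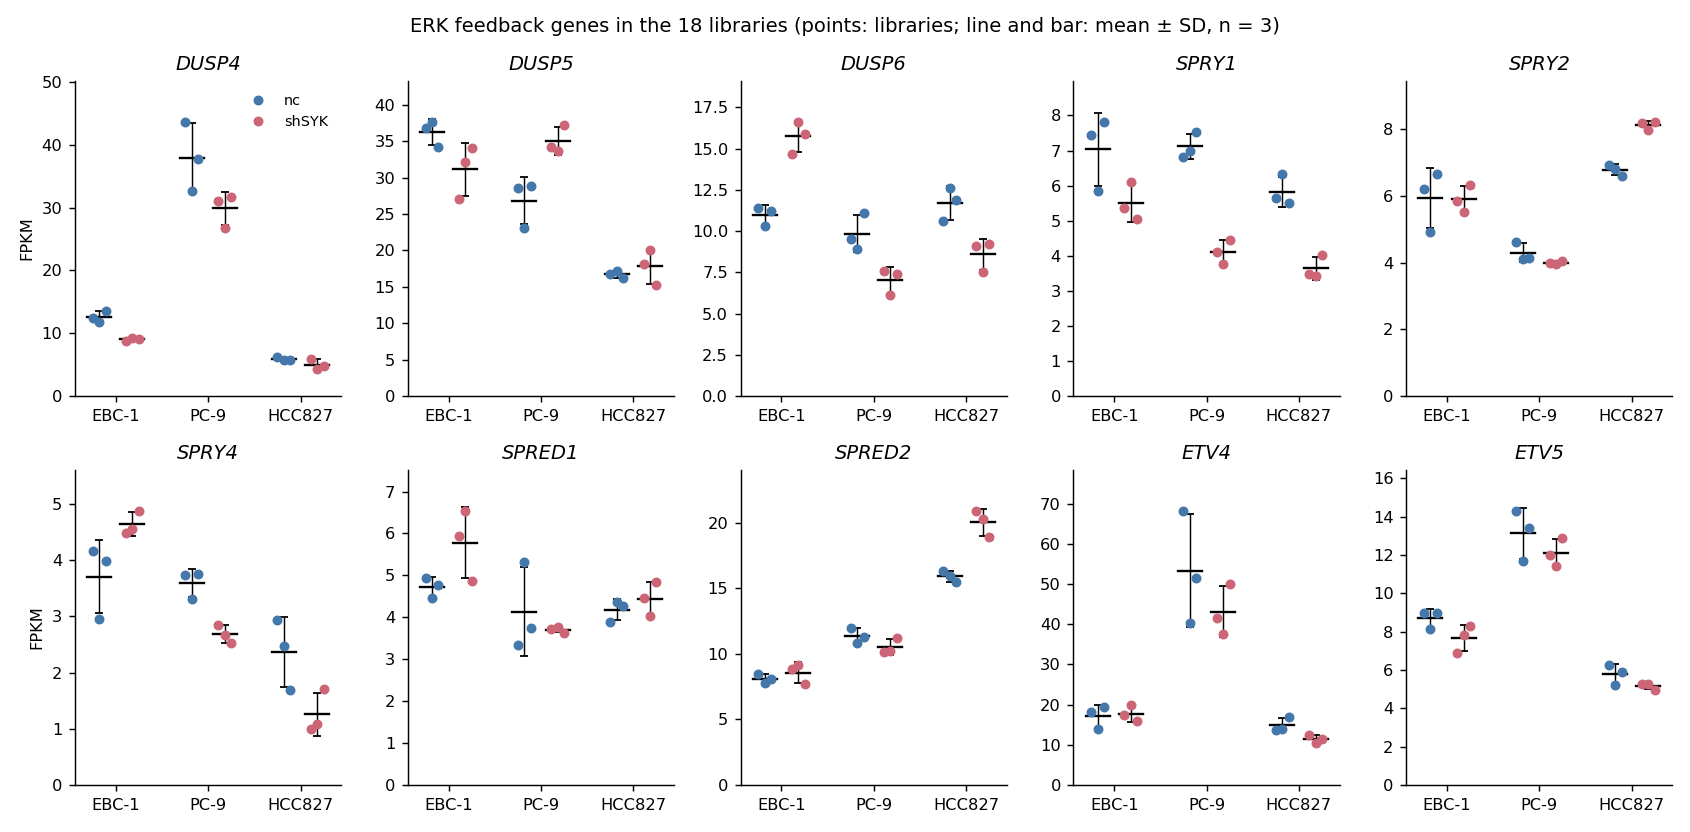
FPKM of the 10 members in the 18 libraries (vertical axis, FPKM, own scale and starting at 0 in each panel) for nc and shSYK cells of the 3 lines, where points are libraries and the line and bar are the mean ± SD (n = 3). DUSP6 is higher with shSYK in EBC-1 and lower with shSYK in PC-9 and HCC827.

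Among the members, DUSP6 and DUSP4 were the genes that changed in EBC-1, in opposite directions. DUSP6, a phosphatase specific for ERK in the cytoplasm, was measured at 11.4, 10.3 and 11.2 FPKM in the nc libraries and at 14.7, 16.6 and 15.9 FPKM in the shSYK libraries. All shSYK libraries were above all nc libraries, and DUSP6 rose to 144% of nc (log2 fold change 0.49, SE 0.074, limma adjusted p = 0.00213). DUSP4, a nuclear phosphatase of ERK and other MAP kinases, stood at 12.5, 11.8 and 13.6 FPKM in nc and at 8.84, 9.25 and 9.18 FPKM in shSYK. The groups did not overlap, and DUSP4 fell to 71.9% of nc (log2 fold change -0.43, SE 0.072, limma adjusted p = 0.00307). Both calls held in all 15 alternatives that were run. In the background of 12430 genes tested in EBC-1, 23.1% were called higher and 21.6% lower, beside 1 of 10 members higher and 1 of 10 lower. In bulk RNA, fewer cells that express a gene and less of its RNA per cell cannot be told apart.

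The other 8 members in EBC-1 did not pass the test. SPRY4 was measured at 4.17, 2.96 and 3.99 FPKM in nc and 4.49, 4.56 and 4.88 FPKM in shSYK, without overlap (log2 fold change 0.27, limma adjusted p = 0.0827). DUSP5, a nuclear ERK phosphatase, was measured at 36.8, 37.6 and 34.2 FPKM in nc and at 27.1, 32.2 and 34.1 FPKM in shSYK, without overlap (log2 fold change -0.22, limma adjusted p = 0.0972). SPRY1 gave -0.30 (log2 fold change) with overlapping groups (limma adjusted p = 0.0647), and it passed the test in the fit of all 18 libraries, in limma-voom and without nc replicate 2, with adjusted p-values of 0.0211, 0.0305 and 0.00965. SPRED1 gave 0.24 (limma adjusted p = 0.0943) and passed without shSYK replicate 3 (0.0228). When the libraries were rescaled to an equal sum, SPRY4 and SPRED1 also passed (limma adjusted p = 0.0215 and 0.0212), a scale on which the median of all genes lay 0.107 higher (log2). SPRED2, SPRY2, ETV4 and ETV5 gave log2 fold changes of 0.068, 8.54e-05, 0.056 and -0.16, where the signs of SPRY2 and ETV4 turned under other settings. In ranges, 2 members were apart upwards and 2 downwards, beside 56.9% of all genes apart in either direction.

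In PC-9, SPRY1 was the member called. SPRY1, an inhibitor of signalling from receptor tyrosine kinases to ERK, was measured at 6.83, 6.99 and 7.53 FPKM in nc and at 4.12, 3.78 and 4.45 FPKM in shSYK. The groups did not overlap, and SPRY1 fell to 57.8% of nc (log2 fold change -0.67, SE 0.095, limma adjusted p = 0.0211). The call did not hold with nc replicate 3 left out, or with any 1 of the 3 shSYK libraries left out (limma adjusted p = 0.096 to 0.151), or without the filter on low FPKM (0.0667), while the fold change stayed between -0.71 and -0.62 in those fits. Only 0.678% of the 12089 genes tested in PC-9 were called higher and 1.41% lower, against 0 and 1 of the 10 members.

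The other 9 members in PC-9 were not called. An unadjusted limma p under 0.05 was found for 5 of the 10 members, SPRY1 among them. The share of all genes under that threshold is not given here. This count and the unadjusted counts for the lists below therefore have no background beside them. DUSP6 was measured at 9.55, 8.91 and 11.1 FPKM in nc and at 7.6, 6.1 and 7.4 FPKM in shSYK, apart in range (SE 0.122, limma adjusted p = 0.136, log2 fold change -0.44). In the fit of all 18 libraries its adjusted p was 0.00925. SPRY4 was measured at 3.73, 3.31 and 3.75 FPKM in nc and at 2.85, 2.67 and 2.53 FPKM in shSYK, also apart (log2 fold change -0.32, limma adjusted p = 0.163). The DUSP5 libraries pointed the other way, with 28.6, 23.1 and 28.8 FPKM in nc and 34.2, 33.6 and 37.2 FPKM in shSYK (log2 fold change 0.38, limma adjusted p = 0.186), and DUSP5 passed with quantile normalization (0.0461) and in the fit of all 18 libraries (0.0286). DUSP4 was measured at 43.6, 32.6 and 37.7 FPKM in nc and at 31.1, 26.8 and 31.7 FPKM in shSYK (log2 fold change -0.33, limma adjusted p = 0.303). Of the 10 members, 9 had a negative and 1 a positive log2 fold change, beside a negative one in 48.1% of all genes. The median log2 fold change of the members was -0.19 beside 0.0088 over all genes. In ranges 5 members were apart downwards and 1 upwards, beside 23.7% of all genes apart in either direction. The standard errors of the members in PC-9 had a median of 0.115 and those of all genes 0.136, where EBC-1 gave 0.0986 and 0.0997 and HCC827 gave 0.0856 and 0.0831.

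In HCC827, 6 of the 10 members changed: SPRY1, DUSP6, SPRY4 and ETV4 fell, and SPRY2 and SPRED2 rose. SPRY1 was measured at 5.65, 6.32 and 5.5 FPKM in nc and at 3.49, 3.42 and 4.02 FPKM in shSYK, a fall to 62.5% of nc (log2 fold change -0.56, SE 0.080, limma adjusted p = 0.00204). DUSP6 was measured at 10.6, 12.6 and 11.9 FPKM in nc and at 9.08, 7.53 and 9.21 FPKM in shSYK, a fall to 73.6% (log2 fold change -0.40, SE 0.092, limma adjusted p = 0.0119). Both genes were apart in range, and neither call was lost in any of the alternatives in which the gene was tested. In the background of 11999 genes tested in HCC827, 17.2% were called higher and 20.7% lower, and 52.3% were apart in range in either direction, where 2 members were apart upwards and 3 downwards.

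SPRY2 and SPRED2, inhibitors of the same pathway as SPRY1, changed in the other direction in HCC827. SPRED2 was measured at 16.3, 15.9 and 15.5 FPKM in nc and at 20.9, 20.3 and 18.9 FPKM in shSYK, a rise to 126% of nc (log2 fold change 0.32, SE 0.057, limma adjusted p = 0.00522). SPRY2 was measured at 6.92, 6.81 and 6.6 FPKM in nc and at 8.17, 7.95 and 8.2 FPKM in shSYK, a rise to 120% (log2 fold change 0.23, SE 0.053, limma adjusted p = 0.0131). Neither call was lost in the alternatives run. Within the Sprouty genes of this line, SPRY1 and SPRY4 thus fell while SPRY2 rose.

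ETV4 and SPRY4 also fell in HCC827, and neither call held in all alternatives. ETV4 was measured at 13.7, 13.9 and 16.8 FPKM in nc and at 12.3, 10.4 and 11.4 FPKM in shSYK, a fall to 76.7% (log2 fold change -0.35, SE 0.092, limma adjusted p = 0.0204). The ETV4 call was lost without shSYK replicate 2 (0.0698), without shSYK replicate 3 (0.0566), without the filter on low FPKM (0.0636) and in the fit of all 18 libraries (0.125). SPRY4, the lowest of the members, was measured at 2.94, 2.47 and 1.69 FPKM in nc and at 0.996, 1.08 and 1.7 FPKM in shSYK, a fall to 53.1% (log2 fold change -0.57, SE 0.173, limma adjusted p = 0.0351) with groups that overlapped by 1 library. The SPRY4 call was lost without nc replicate 1, nc replicate 2, shSYK replicate 1 or shSYK replicate 2 (limma adjusted p = 0.09 to 0.104), on the scale of equal sums (0.0522) with a replicate block (0.073) and without the filter on low FPKM (0.118). DUSP4, DUSP5, SPRED1 and ETV5 were not called in HCC827, with log2 fold changes of -0.20, 0.076, 0.073 and -0.13. DUSP4 passed without shSYK replicate 1 (limma adjusted p = 0.0218).

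**Figure D2:**
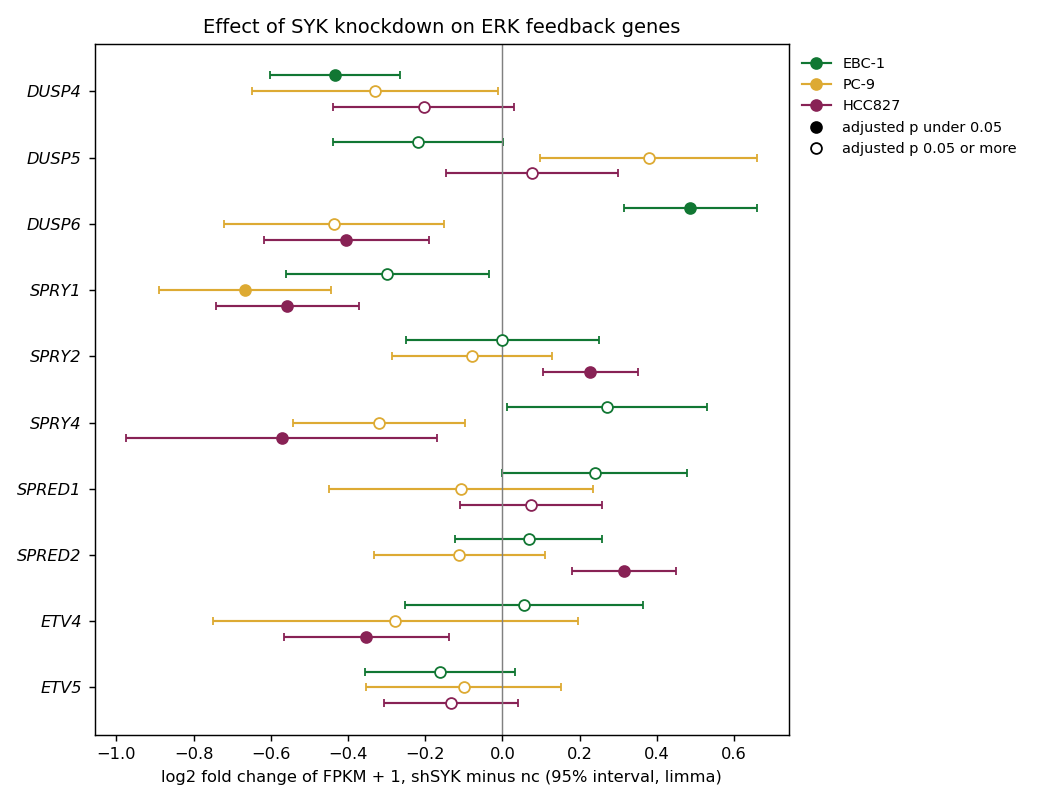
Log2 fold change of FPKM + 1, shSYK minus nc (horizontal axis), of each member in the 3 lines with its 95% interval from limma, where filled points had an adjusted p under 0.05. SPRY1 lies left of 0 in each line, and DUSP6 lies right of 0 in EBC-1 and left of 0 in PC-9 and HCC827.

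The effect of shSYK was then compared between the lines, as the difference of the log2 fold changes in a fit of all 18 libraries, for 10 members and 3 pairs of lines, which share their libraries. Of these 30 differences 6 passed, in 4 genes. In each, the estimated effects in the lines compared had opposite signs, but both effects were called only for DUSP6 between EBC-1 and HCC827. Over the 12672 genes tested, 19.8% passed between EBC-1 and PC-9, 21.8% between EBC-1 and HCC827 and 7.5% between PC-9 and HCC827, beside 3, 2 and 1 of the 10 members. DUSP6 differed most: its effect was 0.92 higher in EBC-1 than in PC-9 (log2, SE 0.141, limma adjusted p = 0.000325) and 0.89 higher in EBC-1 than in HCC827 (SE 0.141, limma adjusted p = 0.000314), and both were called in 26 of 26 alternatives. Between PC-9 and HCC827 the DUSP6 effects differed by -0.031, with a 95% interval from -0.332 to 0.269.

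SPRY4 gave the same split of lines as DUSP6, with less precision. Its effect was 0.84 higher in EBC-1 than in HCC827 (SE 0.195, limma adjusted p = 0.00575), called in 25 of 25 alternatives, and 0.59 higher in EBC-1 than in PC-9 (SE 0.195, limma adjusted p = 0.0436), called in 10 of 25 with adjusted p-values from 0.0137 to 0.107. The libraries whose removal ended the call against PC-9 were EBC-1 nc replicates 2 and 3, each EBC-1 shSYK replicate, PC-9 nc replicate 3, each PC-9 shSYK replicate, HCC827 nc replicate 2 and HCC827 shSYK replicate 2. That call was also lost with a pseudocount of 0.1, without the filter on low FPKM, with quantile normalization and with a replicate block. DUSP5 had an effect 0.60 lower in EBC-1 than in PC-9 (a difference of -0.60, SE 0.151, limma adjusted p = 0.0114), called in 26 of 26 alternatives, while against HCC827 its difference was -0.29 (limma adjusted p = 0.182) and was called in 0 of 26. SPRED2 had an effect 0.43 lower in PC-9 than in HCC827 (a difference of -0.43, SE 0.102, limma adjusted p = 0.0176), which was lost without PC-9 shSYK replicate 1, without HCC827 shSYK replicate 1 and with a replicate block (highest adjusted p 0.0593).

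SPRY1, SPRY2, SPRED1, DUSP4, ETV4 and ETV5 gave no difference that passed. The SPRY1 effects differed by 0.37 between EBC-1 and PC-9 (95% interval 0.0767 to 0.661, limma adjusted p = 0.0717), by 0.26 between EBC-1 and HCC827 (-0.0335 to 0.55) and by -0.11 between PC-9 and HCC827 (-0.402 to 0.182). The SPRY2 effects differed by 0.079, -0.23 and -0.31 for EBC-1 against PC-9, EBC-1 against HCC827 and PC-9 against HCC827, where the last had a 95% interval of -0.554 to -0.0599 (limma adjusted p = 0.136). SPRED1 gave 0.35, 0.17 and -0.18 in the same order, with intervals between -0.537 and 0.704. The ETV5 effects differed by -0.062, -0.029 and 0.033 over the 3 pairs, with intervals between -0.319 and 0.29. The ETV4 intervals were the widest, from -0.165 to 0.832 for EBC-1 against PC-9, and DUSP4 differed by -0.10, -0.23 and -0.13 over the 3 pairs without passing.

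**Figure D3:**
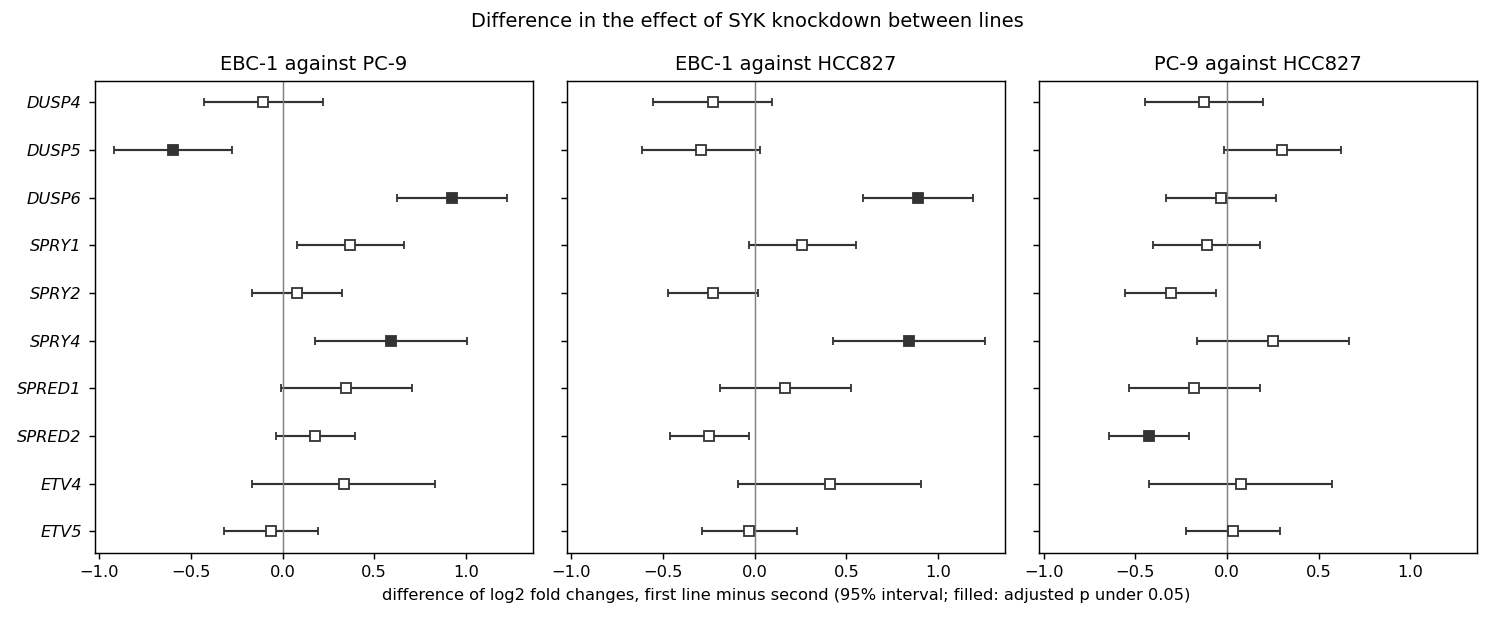
Difference between lines in the log2 fold change of FPKM + 1 by shSYK (horizontal axis, first line minus second) for the 10 members, with 95% intervals from limma, where filled squares had an adjusted p under 0.05. DUSP6 and SPRY4 lie right of 0 in both comparisons with EBC-1, and DUSP5 lies left of 0 against PC-9.

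Several members share their position with other genes, and the strand used in counting is not given in the sources used here. DHX8, which lies on the opposite strand over ETV4, held 673 to 1163 reads a library, beside 358 to 2036 reads on ETV4. DGKG, on the same strand as ETV5 and overlapping it, held 37 to 290 reads beside 262 to 877 on ETV5. Reads from these pairs may not have been told apart. The antisense gene SPRY4-AS1 held at most 20 reads and AC024909.3, which overlaps DUSP6, at most 14. The reads on the members ranged from 59 for SPRY4 to 2855 for DUSP4 in a library, and the lowest of the SPRY4 values came from HCC827 shSYK (59 to 110 reads).

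The other transcripts that ERK is known to raise were read from a list of 18 genes. In EBC-1 4 of 16 tested rose and 6 fell, in PC-9 0 of 15 rose and 1 fell, and in HCC827 2 of 16 rose and 7 fell. Of all genes tested, 23.1% rose and 21.6% fell in EBC-1, 0.678% and 1.41% in PC-9, and 17.2% and 20.7% in HCC827. At an unadjusted limma p under 0.05, 2 of the 15 were higher and 3 lower in PC-9, and limma-voom called 0 higher and 1 lower there. Of all 12089 genes tested in PC-9, limma-voom called 123 higher and 290 lower. The median log2 fold changes of the listed genes were -0.083, -0.047 and -0.17 in EBC-1, PC-9 and HCC827, beside 0.0090, 0.0088 and -0.0053 over all genes. EGR1, an early response transcription factor, changed most in both lines with many changes: it rose from 2.71 ± 0.343 to 7.72 ± 0.634 FPKM in EBC-1 (log2 fold change 1.24, limma adjusted p = 0.00017) and fell from 68.0 ± 9.18 to 27.5 ± 4.29 FPKM in HCC827 (-1.28, limma adjusted p = 0.000594). In PC-9 its log2 fold change was 0.16 (limma adjusted p = 0.716), and all 3 differences of the EGR1 effect between lines passed (1.07, 2.52 and 1.44 for EBC-1 against PC-9, EBC-1 against HCC827 and PC-9 against HCC827).

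Further genes of that list moved without one direction. UPP1, a uridine phosphorylase, fell in EBC-1 (log2 fold change -0.84, limma adjusted p = 0.000331), HMGA2, a chromatin protein, rose in HCC827 (0.51, limma adjusted p = 0.00131), and CCND1, the cyclin of the G1 phase, fell in PC-9 (-0.52, limma adjusted p = 0.0489). The CCND1 call did not hold without nc replicate 3 or without any 1 of the shSYK libraries (limma adjusted p = 0.224 to 0.263). It was also lost with a pseudocount of 0.1, without the filter on low FPKM and with a replicate block.

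Of the other MAP kinase phosphatases, EBC-1 and HCC827 each had 2 of 7 that rose and 1 that fell, near the shares of all genes (23.1% and 21.6% in EBC-1, 17.2% and 20.7% in HCC827). PC-9 had 1 of 6 that rose, beside 0.678% of all genes. DUSP1, a nuclear phosphatase of stress-activated and other MAP kinases, rose in PC-9 (limma adjusted p = 0.0157, log2 fold change 0.73). It did not pass without nc replicate 3 or any 1 of the shSYK libraries (limma adjusted p = 0.0947 to 0.128), or without the filter on low FPKM (0.051). In HCC827 DUSP10 rose (0.79, limma adjusted p = 0.000973) and DUSP9 fell (-0.85, limma adjusted p = 0.00493). In EBC-1 DUSP2 rose (0.43, limma adjusted p = 0.0369) and DUSP16 fell (-0.41, limma adjusted p = 0.0234), and both calls were lost in 7 settings, the removal of nc replicate 3 or of any 1 shSYK library for DUSP2 and of nc replicates 1 or 2 or shSYK replicates 1 or 2 for DUSP16 among them (limma adjusted p = 0.0504 to 0.0948 in the removals).

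**Figure D4:**
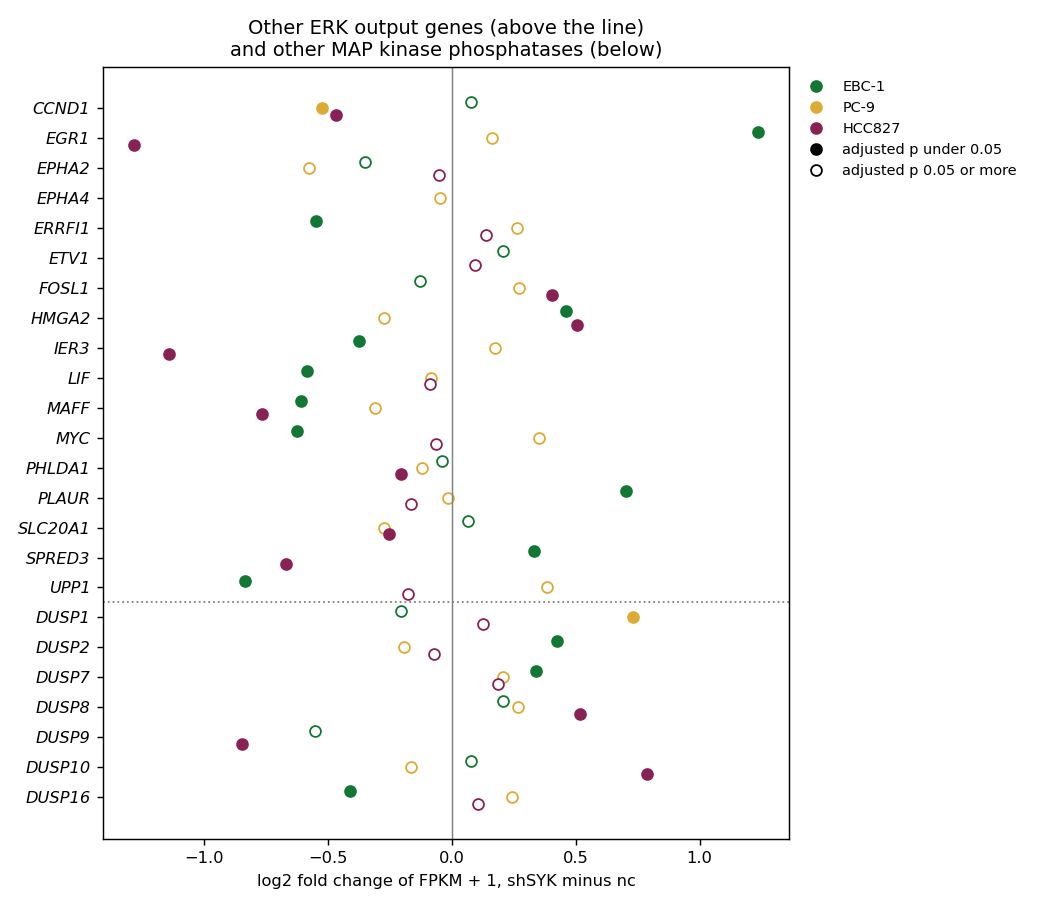
Log2 fold change of FPKM + 1, shSYK minus nc (horizontal axis), of the other ERK output genes (above the dotted line) and the other MAP kinase phosphatases (below it) tested in each line, where filled points had a limma adjusted p under 0.05. EGR1 lies farthest right in EBC-1 and farthest left in HCC827.

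Transcripts of the cascade itself changed in both directions. Of the 22 genes from GRB2 to the RSK kinases, EBC-1 had 8 that rose and 5 that fell, HCC827 had 3 that rose and 6 that fell, and 0 of the 21 tested in PC-9 passed in limma or limma-voom, with 1 at an unadjusted p under 0.05. Of all genes, 23.1% rose and 21.6% fell in EBC-1, 17.2% and 20.7% in HCC827, and 0.678% and 1.41% in PC-9. KSR1, the scaffold that brings RAF and MEK together, fell from 3.41 to 1.45 FPKM in EBC-1 (log2 fold change -0.85, limma adjusted p = 0.00074) and from 5.54 to 2.78 FPKM in HCC827 (-0.79, limma adjusted p = 0.000444). In PC-9 KSR1 was 1.83 FPKM in both groups. RPS6KA3, a kinase downstream of ERK, rose in EBC-1 (0.67, limma adjusted p = 0.00172), and GAB1, an adaptor between receptors and the cascade, rose in HCC827 (0.55, limma adjusted p = 0.00246).

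Of the 4 receptors listed, 1 rose and 0 fell in EBC-1, and 1 rose and 2 fell in HCC827. Of all genes tested, 23.1% rose and 21.6% fell in EBC-1, and 17.2% and 20.7% in HCC827. MET rose in EBC-1 from 469 to 606 FPKM (limma adjusted p = 0.0124, log2 fold change 0.38). It no longer passed without nc replicate 1 (limma adjusted p = 0.0528) or without the filter on low FPKM (0.0879). In HCC827 EGFR rose from 284 to 362 FPKM (0.35, limma adjusted p = 0.0237) and ERBB3, a partner of EGFR with little kinase activity of its own, fell from 13.7 to 8.24 FPKM (-0.67, limma adjusted p = 0.000464). ERBB2 also fell there, from 25.8 to 16.4 FPKM (-0.62, limma adjusted p = 0.000571). The EGFR call was lost without nc replicate 3, shSYK replicate 1 or shSYK replicate 2 (limma adjusted p = 0.0554 to 0.0728), and without the filter on low FPKM (0.0862). In PC-9 0 of the 4 receptors passed in limma, 2 had an unadjusted p under 0.05 and 1 fell in limma-voom. Of all 12089 genes tested in PC-9, 0.678% rose and 1.41% fell in limma, and limma-voom called 123 higher and 290 lower. The unadjusted count has no background beside it.

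Among 8 repressors and nuclear factors of the pathway, EBC-1 had 1 that rose and 3 that fell, PC-9 had 1 that rose, and HCC827 had 1 that rose and 4 that fell. Of all genes tested, 23.1% rose and 21.6% fell in EBC-1, 0.678% and 1.41% in PC-9, and 17.2% and 20.7% in HCC827. ETS1, a transcription factor that ERK phosphorylates, rose from 27.7 to 53.8 FPKM in HCC827 (log2 fold change 0.94, limma adjusted p = 0.00171) and from 4.18 to 6.84 FPKM in PC-9 (0.60, limma adjusted p = 0.0415). The PC-9 call was lost without nc replicate 3 or any 1 shSYK library (limma adjusted p = 0.115 to 0.209). It was also lost without the filter on low FPKM, on the scale of equal sums and with a replicate block. In EBC-1 ETS1 fell (log2 fold change -0.19, limma adjusted p = 0.0405), a value that lies outside the naming rule and was chosen after it was seen. That call was lost in 11 settings, among them the removal of any 1 nc library or of shSYK replicate 1 or 2 (limma adjusted p = 0.0508 to 0.141) and the scale of equal sums (0.495, with a log2 fold change of -0.058). The ETS1 effect was lower in EBC-1 than in PC-9 (a difference of -0.78, limma adjusted p = 0.00208) and lower than in HCC827 (a difference of -1.12, limma adjusted p = 7.45e-05), the opposite direction to DUSP6, both called in 26 of 26 alternatives. In EBC-1 ETS2 rose (0.37, limma adjusted p = 0.00779) and SRF, the serum response factor, fell (-0.45, limma adjusted p = 0.00365). ATXN1L, a partner of the repressor CIC, fell in HCC827 (-0.50, limma adjusted p = 0.00058).

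The genes whose pattern over the 6 group means was nearest to that of DUSP6, among 12672 genes, were AC011450.1, MAP2K3 and CD37, with root mean square differences of 0.067, 0.097 and 0.11 on the log2 scale. The measure was taken on group means centred on each gene's own mean, over 6 groups that share their libraries between genes.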

How the data were processed

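RNA of nc and shSYK cells of EBC-1, PC-9 and HCC827 was extracted with TRIzol and sequenced on an Illumina HiSeq by a service provider, in 18 libraries. The authors aligned reads to hg38 and deposited FPKM, a table for each line with a column for each library. The submitters' processing notes name CASAVA and HISAT2 beside the builds GRCh37, GRCh38, hg19 and hg38. The read counter, its strand setting and the annotation are not given in the sources used here. FPKM times gene length gave whole reads for 100% of values within 0.01 of a read, from which the depth was read. RefSeq sequences came from a table of build GRCh38.p14.

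Genes that averaged 1 FPKM or more in the 6 libraries of a line were tested on log2(FPKM + 1) with limma 3.58.1 in R 4.3.3 (two-sided, empirical Bayes with a variance trend) and Benjamini-Hochberg adjustment over all genes tested, and were called at an adjusted p under 0.05. Fold changes on this scale understate the change of low genes. Differences between lines were contrasts in 1 fit of 18 libraries. The test was checked on simulated data. Members and lists were chosen with earlier results of these data known. All members, SYK, and per list and line the called genes with the largest rise and fall were named, besides the 3 genes nearest to DUSP6 and genes overlapping a member. ETS1 in EBC-1 and ERBB2 in HCC827 were added after their values were seen. Alternatives were another pseudocount (0.1), no filter or a mean of 5 FPKM, equal sums (TPM), quantile normalization, no variance trend, all 18 libraries, limma-voom on the recovered reads, a replicate block and each library left out. Those for genes outside the members were chosen after seeing the data. Replicates differed beyond sampling noise (chi-square per degree of freedom 2.11 to 38.7), so none was a copy.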

Additional observations from a re-analysis of the deposited data

Results flagged for a closer look

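6 differences between lines in the effect of shSYK (log2 fold change in the first line minus that in the second, limma on 18 libraries) passed the test among the 30 computed. DUSP6 differed by 0.92 between EBC-1 and PC-9 and by 0.89 between EBC-1 and HCC827. SPRY4 differed by 0.59 and 0.84 for the same pairs of lines. DUSP5 differed by -0.60 between EBC-1 and PC-9, and SPRED2 by -0.43 between PC-9 and HCC827. In each, the estimated effects in the lines compared had opposite signs, but both effects were called only for DUSP6 between EBC-1 and HCC827. For the others a change of direction was not shown. With 3 libraries in each group, no test for a single library far from its group was run on the members' values.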

How the results depend on the processing

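The number of members called in EBC-1 was 2 and became 4 (3 higher, 1 lower) when the libraries were rescaled to an equal sum, a scale that also changed the split of all genes called from 2876 higher and 2686 lower to 4019 and 1901 in EBC-1 and from 2066 and 2488 to 2482 and 1905 in HCC827. In PC-9 the number was 1 and became 0 without the filter, 2 with quantile normalization and 3 in the fit of all 18 libraries, and it ranged from 0 to 1 with a library left out. In EBC-1 the range with a library left out was 2 to 3 and in HCC827 it was 4 to 6, beside 6 called. The number of differences between lines, 6, ranged from 4 to 8. All genes called in PC-9 (253) fell to 47 without the filter and rose to 491 with equal sums, 505 with quantile normalization, 413 with limma-voom and 1511 in the fit of all 18 libraries, and ranged from 7 without shSYK replicate 1 to 621 with a library left out. In EBC-1 a filter at 5 FPKM left 3579 of 5562, and limma-voom called 6009 in EBC-1 and 5199 in HCC827. The sign turned for SPRY2 in EBC-1 with quantile normalization (-0.023) and limma-voom (-0.0058) and, with a library left out, in the ranges -0.11 to 0.075 for SPRY2 and -0.079 to 0.15 for ETV4 in EBC-1, -0.22 to 0.054 for SPRED1 in PC-9 and -0.011 to 0.18 for DUSP5 in HCC827; none of these was called. Of the values of members under the alternatives, 409 kept direction and call, 16 lost a call, 10 gained one and 8 changed sign; the causes were not tested. The lowest read counts of a member in a library were those of SPRY4 (59 to 435) and SPRY2 (116 to 290). The part of depth in the calls was not tested. Of the other ERK output genes, 0 to 6 were called in PC-9 over the alternatives, beside 1. The deviations of same-numbered libraries from their group means gave correlations from -0.219 to 0.325. The same-numbered library was the best match for PC-9 replicate 2 and for HCC827 replicates 2 and 3. With 3 libraries a group, these correlations cannot settle whether the numbers mark pairs. With a replicate block 2, 1 and 5 members were called in EBC-1, PC-9 and HCC827 and 4 differences, the SPRY4 call in HCC827 being lost (adjusted p 0.073), and 4326, 172 and 4111 genes.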
